A study of Neurospora crassa with 12 samples.

Results

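The genes examined encode the 5 core subunits of the H3K9 methyltransferase complex of the filamentous fungus Neurospora crassa, namely dim-5, dim-7, dim-8, dim-9 and cul-4. They were chosen by their NCU identifiers, together with every unannotated transcript that overlapped one of them or lay within 2000 bp on either strand. All 5 genes were found among the 9730 annotated genes. The rule gave 5 annotated and 15 unannotated transcripts, 20 of the 21475 transcripts in the merged annotation. RNA came from mycelia of WT, of Δset-1, which lacks the H3K4 methyltransferase KMT2, and of Δdim-5, which lacks the H3K9 methyltransferase KMT1 and hence 1 of the genes described here. Each strain was grown for 2 days at 25 °C and harvested after 24 h of darkness (DD24) or after a further 30 min of light (LP30), with 2 replicates in each of the 6 groups. The study states that the deletion strains came from the Neurospora knockout collection and were backcrossed to the WT strain. The 12 libraries were pooled into 1 annotation, which gives where each transcript and its exons lie and on which strand, but not how abundant it was in any library. The effect of either deletion or of light on these genes, the absence of dim-5 RNA from the 4 Δdim-5 libraries, the depth of each library and the spread between replicates could therefore not be measured.

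In Neurospora, the SET-domain protein DIM-5 is the enzyme that trimethylates lysine 9 of histone H3. It works in a complex with DIM-7, which brings it to heterochromatin, with the WD40 protein DIM-9, and with CUL4 and DIM-8 (DDB1), the cullin scaffold and the adaptor of a ubiquitin ligase. The mark is read by HP1, the product of hpo, which brings in the DNA methyltransferase DIM-2, and each subunit of the complex is needed for H3K9 methylation.

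All 5 genes had 1 annotated transcript, as did 90.8% of annotated genes. Each lay in an assembly gene and carried the score of StringTie, whereas 8.47% of annotated genes had a dot, which marks a locus with no assembled transcript. The dim-5 gene (NCU04402) was the smallest, at 1685 bp with 2 exons, and 66.6% of annotated genes span more. The genes for its partners were long. They spanned 3597 bp (cul-4, NCU00272), 3692 bp (dim-7, NCU04152), 4026 bp (dim-8, NCU06605) and 4220 bp (dim-9, NCU01656), against a median of 2129 bp and an upper quartile of 3040.75 bp over all genes. With 6 exons, dim-9 had more than the others, and only 2.68% of annotated genes have more than it.

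The 15 unannotated transcripts comprised 9 isoforms, which shared exon sequence with an annotated gene on the same strand, 2 antisense transcripts, which shared exon with a gene on the opposite strand only, and 4 intergenic transcripts, which touched no annotated gene. Over all unannotated transcripts these classes make up 50.6%, 22.8% and 26.5%. The class did not always refer to a complex gene. The isoforms MSTRG.7490.1 and MSTRG.7492.1 shared same-strand exon only with the neighbours NCU04403 and NCU04401. The antisense transcript MSTRG.10036.1 lay opposite NCU04150 only. Same-strand isoforms were found for dim-5, dim-7 and dim-9, that is 3 of 5 genes, against 36.4% of all annotated genes. The cul-4 and dim-8 genes had none. Only dim-8 had a transcript of the antisense class, 1 of 5 genes against 21.2% of all. Intergenic transcripts lay within 2000 bp of dim-8 and cul-4, 2 of 5 genes against 29.1% of all. No test was made on 5 chosen genes, and the paragraphs that follow describe the structure at each locus.

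At dim-5, transcripts on both strands crossed the whole gene and neither began and ended with it. Of the 12 pooled libraries, 4 came from Δdim-5, in which this gene is deleted. Which libraries gave each transcript described here and in the next paragraph is not recorded. Whether any of them came from the altered locus was not tested. The gene lies on the minus strand of chromosome IV at 3480589 to 3482273 (NC12, supercontig 12.4). The only same-strand transcript besides the annotated one, MSTRG.7490.2 (3476322 to 3482273, 4 exons, 5657 nt), was assembled as a read-through. It began at the annotated start of dim-5, kept the 85 nt dim-5 intron and contained all 1600 nt of dim-5 exon, and it then passed the annotated 3′ end by 4267 bp without an intron at that end. It continued through the downstream gene NCU04403 to 289 bp past the 3′ end of that gene, in which it kept 2 of 3 annotated introns and held the other inside an exon. The 2 genes were joined by an exon (3479169 to 3481959) and by no intron, and whether 1 RNA spans both was not tested. An isoform shared with another gene was found for 1 of 5 complex genes and for 5.34% of all annotated genes. No unannotated isoform of dim-5 alone was present. An assembled transcript that matched the annotation would appear in the merged file under the annotated identifier, so the file does not show whether one was assembled. A second transcript of the same assembly gene, MSTRG.7490.1 (3476322 to 3480500, 2 exons, 4097 nt), began 88 bp past the 3′ end of dim-5 and shared no exon with it. On its own strand it covered NCU04403 alone, and on the other strand NCU16819 lay whole inside 1 of its exons.

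On the plus strand, MSTRG.7492.1 (3480440 to 3486036, 2 exons, 5529 nt) contained the whole of dim-5, its intron included, inside 1 exon. It began 149 bp past the 3′ end of dim-5, ran past the dim-5 start by 3763 bp and ended at the annotated 3′ end of NCU04401, all of whose 1282 nt it contained. Because it shares exon with NCU04401 on its own strand it was classed as an isoform, which is why dim-5 is not counted among the genes with an antisense transcript. It shared 1749 bp of exon with the read-through transcript on the other strand. Its only intron (3484161 to 3484228, 68 nt) lies upstream of dim-5 and is not annotated. Counting such isoforms of other genes, 2 of 5 complex genes (dim-5 and dim-8) had an unannotated transcript on the opposite strand, against 30.3% of all genes. The whole gene lay inside 1 opposite-strand exon for dim-5 and for 3.46% of all genes, and both a read-through isoform and such an exon were found for 10 genes, 0.103% of all. That last combination was chosen after the dim-5 locus had been seen.

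The dim-7 isoforms ended short of the annotated gene at both ends. The gene lies on the minus strand of chromosome V at 5011283 to 5014974 (supercontig 12.5). Its annotated 3′ end overlaps that of the convergent gene NCU04151 by 690 bp of exon. The median of such an overlap is 170 bp over the 2133 genes that share exon with an annotated opposite-strand gene, which are 21.9% of all genes and include only dim-7 among the 5. MSTRG.10038.2 (5011879 to 5014926, 2 exons, 2980 nt) ended 596 bp before the annotated 3′ end and shared 94 bp with NCU04151. MSTRG.10038.3 (5012143 to 5014924, 3 exons, 2643 nt) ended 860 bp before it and left 170 bp to that gene. They began 48 and 50 bp inside the annotated start. Isoforms that all stop short of the 3′ end were found for 28.5% of the 3113 genes with an isoform of their own.

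Both dim-7 isoforms kept intron 1 (68 nt) and departed from the annotation at intron 2 (5012595 to 5012671, 77 nt). MSTRG.10038.2 held this intron inside an exon. Isoforms of their own that hold an annotated intron inside an exon were found for dim-7 and dim-9 and for 66.8% of the 2955 genes with an intron and such an isoform. MSTRG.10038.3 used the same upstream end and an end shifted by 6 nt, which left an intron of 71 nt and made the last exon begin 6 nt earlier. The reading frame is not in the file, so whether either form changes the protein was not determined.

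The dim-9 gene had 4 isoforms, a number reached by 2.53% of annotated genes, and all 4 held the last 2 annotated introns inside an exon. The gene lies on the minus strand of chromosome II at 2791337 to 2795556 (supercontig 12.2). The retained introns were intron 4 (2792388 to 2792897, 510 nt) and intron 5 (2791751 to 2792098, 348 nt), counted from the 5′ end, so that 858 nt that the annotation removes were part of every isoform. Over the genes with an intron crossed by 2 or more isoforms, 17.1% had an intron inside an exon of every such isoform. These introns are long for this genome, whose annotated introns have a median of 76 nt and quartiles of 62 and 117 nt. Only 1.87% of introns are longer than intron 4 and 4.55% longer than intron 5. Intron 1 (321 nt) is also long, and 3 or more introns over 300 nt are annotated in 19 genes, 0.195% of all. That number and threshold fit the dim-9 introns themselves, so this share only describes the gene. Annotated transcripts enter the merged file from the reference, so the annotated dim-9 transcript does not show that its splicing pattern was assembled.

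The dim-9 isoforms differed from each other in introns 1 to 3 and at their ends. MSTRG.4192.4 (2791298 to 2795556, 4 exons, 3753 nt) kept the first 3 introns. MSTRG.4192.3 (2791199 to 2795556, 4173 nt) held intron 1 inside an exon, and MSTRG.4192.2 (2791041 to 2795548, 4081 nt) held intron 3 (79 nt) inside one. MSTRG.4192.1 (2791041 to 2795575, 3897 nt) joined the outer ends of introns 2 and 3 in 1 intron of 317 nt and so skipped exon 3, of 132 nt. At the 3′ end every dim-9 isoform passed the annotation, by 39, 138, 296 and 296 bp. The longest of them left 105 bp to the next gene, NCU01657, on the same strand, where the annotation leaves 401 bp. An isoform past the annotated 3′ end was found for 29.5% of genes with an isoform of their own. At the 5′ end 2 of the 4 isoforms kept the annotated start, 1 began 19 bp before it and 1 began 8 bp inside it. An isoform past the annotated 5′ end was found for 34% of genes with an isoform of their own.

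**Figure D1:**
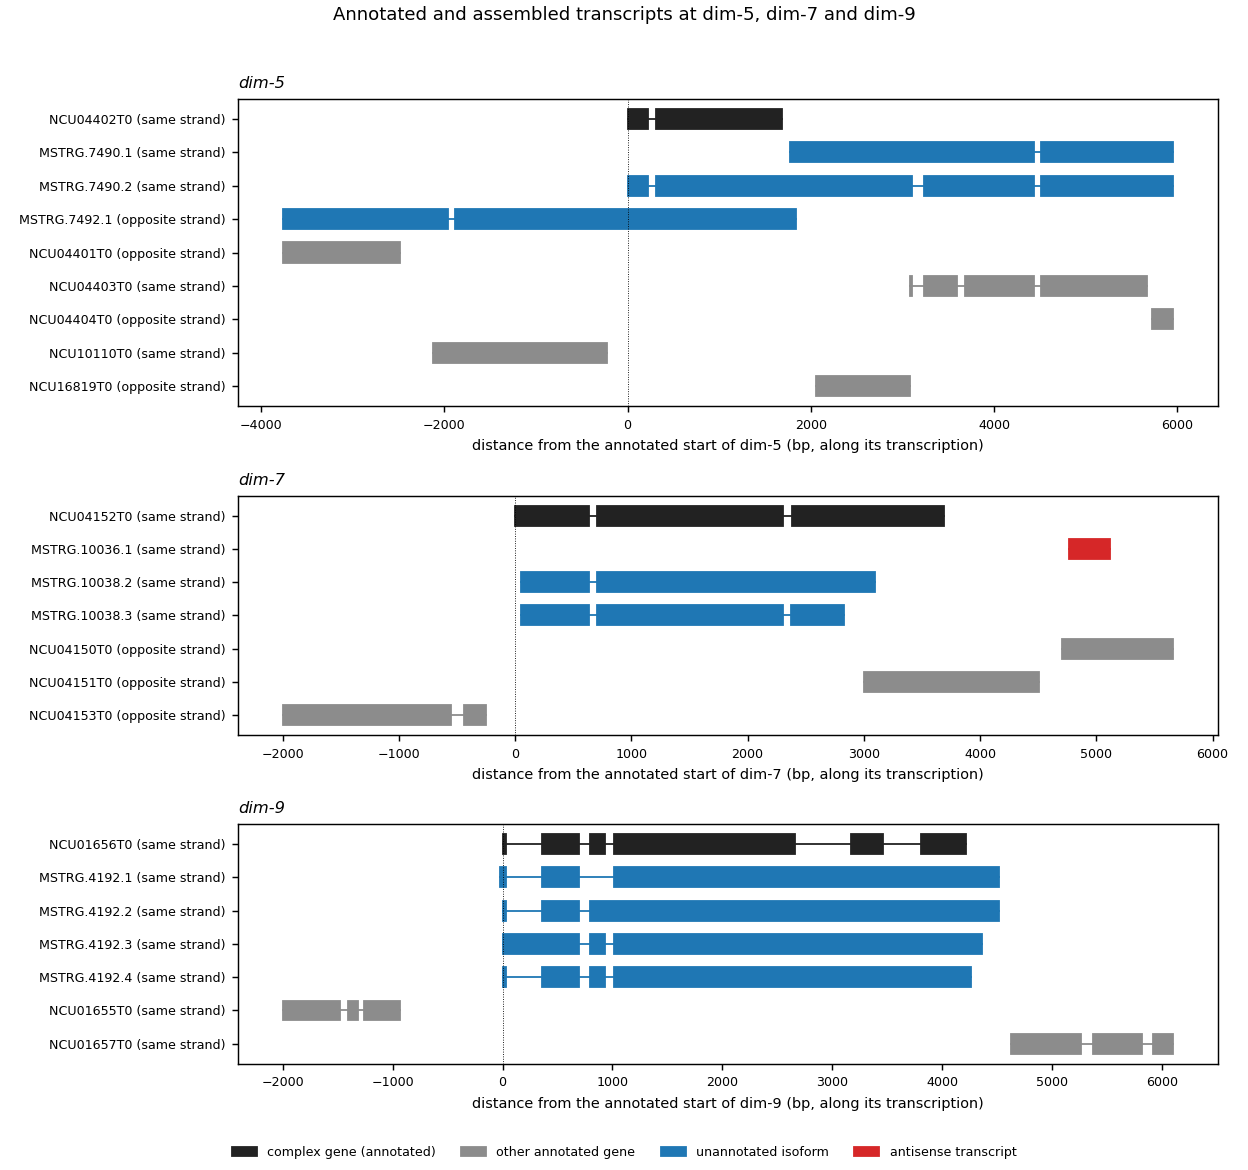
Transcripts at dim-5, dim-7 and dim-9, with exons as boxes, introns as lines and the distance in bp from the annotated start of each gene along its transcription on the x axis (genes that run past the plotted window are cut at its edge). At dim-5 MSTRG.7490.2 and MSTRG.7492.1 cross the gene on opposite strands, at dim-7 the isoforms end 596 and 860 bp short of the annotated 3′ end, and at dim-9 the last 2 annotated introns are inside an exon of all 4 isoforms.

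**Figure D2:**
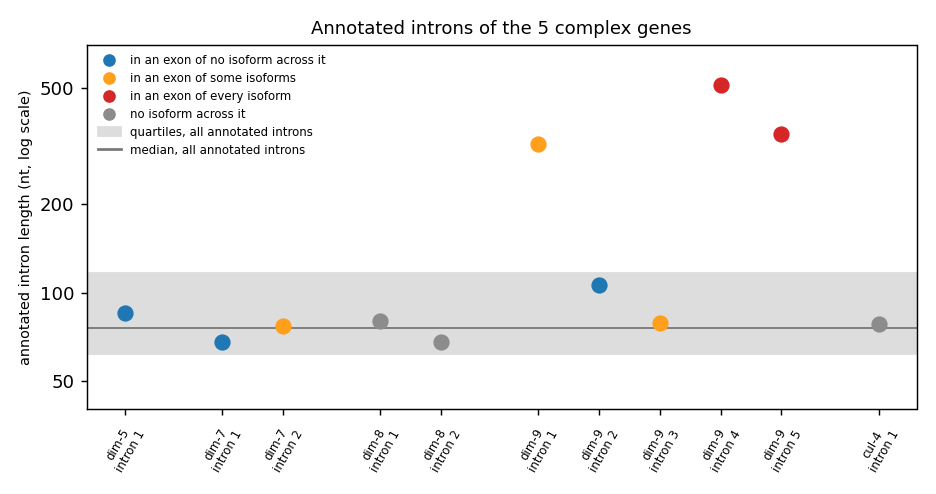
Length in nt (log scale) of each annotated intron of the 5 genes, numbered from the 5′ end and coloured by whether unannotated isoforms across it hold it inside an exon, with the quartiles and the median of all annotated introns as a grey band and line. The dim-9 introns of 321, 510 and 348 nt lie above the upper quartile of 117 nt, and the other 8 introns lie within the quartiles.

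At dim-8 the annotated structure itself had no variant, and the additional transcripts lay antisense to its 3′ end and upstream. The gene lies on the plus strand of chromosome IV at 1782124 to 1786149 (supercontig 12.4). MSTRG.6918.1 (1785812 to 1786069, 1 exon, 258 nt) lay inside the last exon on the minus strand, 80 bp short of the 3′ end of the gene. It equalled 6.65% of the dim-8 exon length, and its 258 bp of overlap compare with a median of 449 bp for the largest overlap in the 2066 genes with an antisense transcript. The annotated gap upstream of dim-8 is 2661 bp, wider than that of 84.5% of genes, and it held 3 intergenic transcripts. On the strand of dim-8, MSTRG.6916.1 (1780812 to 1781726, 1 exon, 915 nt) and MSTRG.6916.2 (1780895 to 1781545, 2 exons, 592 nt, with an intron of 59 nt) ended 397 and 578 bp before its start. On the other strand, MSTRG.6915.1 (1780311 to 1781690, 1 exon, 1380 nt) began 433 bp from the dim-8 start and shared 879 bp with MSTRG.6916.1. A pair of intergenic transcripts that overlap on opposite strands was found within 2000 bp of 3.53% of annotated genes, and of dim-8 alone among the 5. The next gene upstream, NCU06604, carried the dot of a locus with no assembled transcript. Downstream, 256 bp past the end, lies fes-1 (NCU06606), the gene for the Rieske iron-sulfur protein of the respiratory chain.

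The cul-4 gene was the only one of the 5 with no unannotated transcript sharing exon on either strand, as in 44.1% of all genes. It lies on the minus strand of chromosome III at 3248301 to 3251897 (supercontig 12.3) and has 2 exons and an intron of 78 nt. The intergenic transcript MSTRG.5742.1 (3246487 to 3247421, plus strand, 1 exon, 935 nt) lay 879 bp past its 3′ end and was transcribed towards it. No annotated gene lies between them, and the nearest in that direction, NCU00271, is 2344 bp from cul-4.

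**Figure D3:**
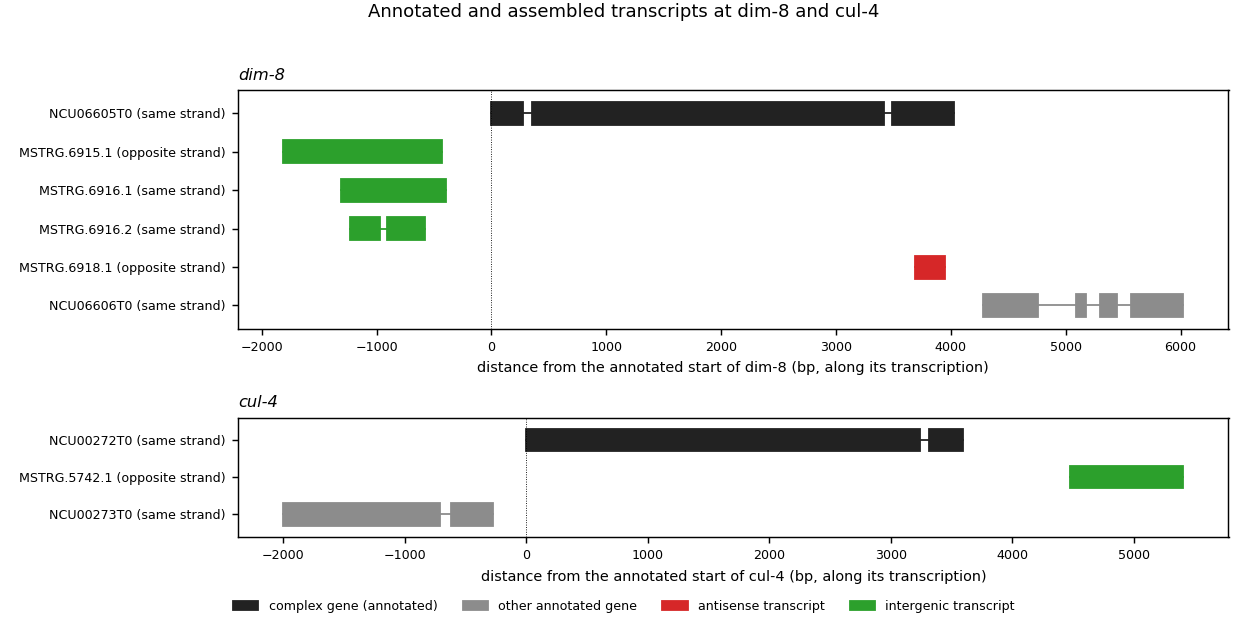
Transcripts at dim-8 and cul-4, with exons as boxes, introns as lines and the distance in bp from the annotated start of each gene along its transcription on the x axis (genes that run past the plotted window are cut at its edge). The antisense transcript of dim-8 lies inside its last exon, 3 intergenic transcripts lie upstream of dim-8, and a single intergenic transcript lies 879 bp past the 3′ end of cul-4.

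The space upstream of the genes differed. Gaps to the next annotated gene were 221 bp at dim-5, 248 bp at dim-7, 269 bp at cul-4, 928 bp at dim-9 and 2661 bp at dim-8, over quartiles of 316 and 1788 bp for all genes. The first 3 lie below the lower quartile. At dim-7 the gap separates divergent starts, since NCU04153 runs the other way, and at dim-5, dim-9 and cul-4 the upstream gene is on the same strand (NCU10110, NCU01655 and NCU00273). Unannotated transcripts began in the gaps of dim-8 and dim-9, where that of MSTRG.4192.1 was an extended start of dim-9 itself, and the dim-5 gap was crossed by MSTRG.7492.1.

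With annotated and unannotated transcripts counted together, 3 of 5 complex genes shared exon with a transcript on the other strand, against 42.7% of all genes. In each case it was of a different kind. For dim-5 it was an isoform of NCU04401, for dim-7 the annotated gene NCU04151 and for dim-8 a short antisense transcript. Strands are those of the file. The study states that strand was kept, whereas the kit version in the labels does not name this, and the 5 unannotated transcripts of a single exon (1 of them antisense to NCU04150, 1070 bp past the 3′ end of dim-7) have no splice site that would show their strand.

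Other genes of the same pathway were examined as a list of 9, and 5 of them had a same-strand isoform (dim-2, dmm-2, hda-1, cdp-2 and rid-1) while hpo, dmm-1, chap and NCU01249 had no unannotated transcript sharing exon on either strand. The shares over all genes are 36.4% and 44.1%. The DNA methyltransferase gene dim-2 was like dim-5 in that its isoforms were all shared with a neighbour. MSTRG.12856.1 and MSTRG.12856.2 (9288 and 9264 nt) began 3761 and 3740 bp before the dim-2 start, contained exon of NCU02248 and ended at the annotated dim-2 end. Here the neighbour lay upstream, whereas at dim-5 it lay downstream. Antisense transcripts were found for dim-2 (512 bp) and dmm-2 (214 bp), a gene needed to keep heterochromatin from spreading, and both lay inside the gene, which makes 2 of 9 list genes against 21.2% of all. The histone deacetylase gene hda-1 had 2 isoforms, each with 1 intron that is not annotated, and shared 540 bp of exon with the opposite gene NCU01526. Its longest annotated intron (770 nt) exceeds those of dim-9. The only isoform of dmm-2, of cdp-2 and of rid-1 held at least 1 annotated intron inside an exon. Such isoforms were found for 66.8% of the 2955 genes with an intron and an isoform of their own. The cdp-2 gene encodes a partner of that deacetylase, and rid-1 is needed for repeat-induced point mutation. The 172 nt intron of cdp-2 is already exon in 1 of its 2 annotated transcripts, since exonic length and span are both 2649. The only annotated intron of rid-1 has 24 nt, below the lower quartile of 62 nt. The rid-1 isoform passed the annotated 5′ end by 1019 bp and the 3′ end by 154 bp. No list gene had 4 or more isoforms, against 2.53% of all genes. None lay whole inside an opposite-strand exon, against 3.46% of all. With shares this low, their absence from a list of 9 sets it apart from neither dim-9 nor dim-5.

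**Figure D4:**
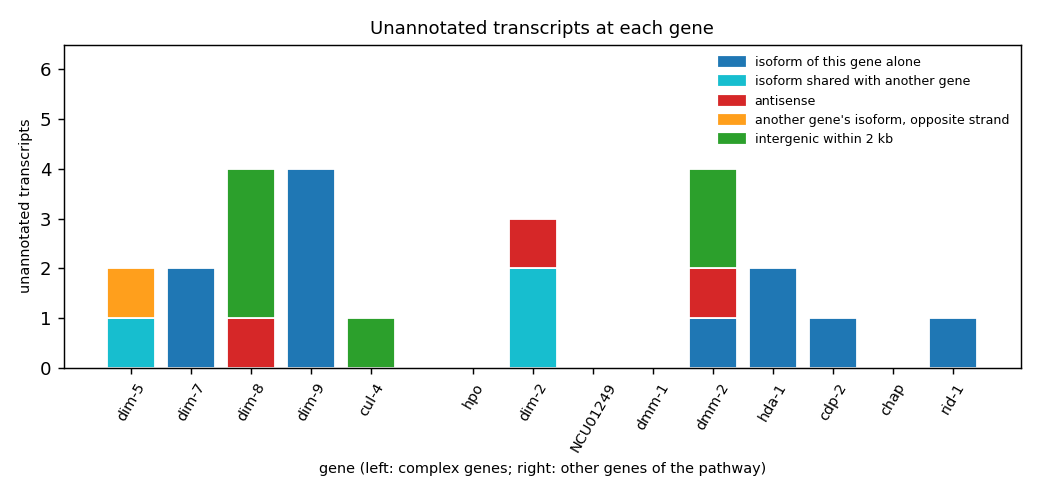
Number of unannotated transcripts at each complex gene (left) and each other gene of the pathway (right), stacked by kind; transcripts near a gene that belong to a neighbour and share no exon with it, MSTRG.7490.1 at dim-5 and MSTRG.10036.1 at dim-7 among them, are not counted. The dim-9 gene has 4 isoforms of its own, dim-5 and dim-2 have isoforms shared with a neighbour only, and cul-4 has 1 intergenic transcript.

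By distance, the farthest transcripts taken in by the rule lay 1070 bp (MSTRG.10036.1, at dim-7) and 879 bp (MSTRG.5742.1, at cul-4) away. The nearest left out lay at 2349 bp (MSTRG.4194.1, an isoform of another gene, at dim-9) and 3130 bp (MSTRG.6919.1, intergenic, at dim-8).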

How the data were processed

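Ribosomal RNA was depleted from total RNA of 12 libraries in 6 groups, which were taken from the sample titles. The authors mapped the reads to NC12 with HISAT2 2.1.0, assembled each sample with StringTie 1.3.3b and merged the assemblies with the existing annotation, as the file header records. The deposited positions are first and last bases counted from 1. The deposited score is a constant of StringTie (1000) or, in 827 annotated transcripts, a dot, and is no level. The pooling removes depth and replicate error, so no test between groups was made and no interval is given.

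Transcripts without an NCU identifier were classed by at least 1 bp of shared exon with an annotated gene. Symbols came from the RefSeq table of assembly NC12, which matched 9729 of 9730 genes. An intron was called retained if it lay wholly inside an exon. All 200 simulated transcripts planted at isolated annotated genes were recovered, which checks the code only. Genes with close neighbours, such as dim-5 and dim-7, were not among the genes used. Shares over all genes are descriptions.

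The members, the list of 9 other genes and the alternatives were chosen with earlier results of these data known. Named were the members, every unannotated transcript of the rule, neighbouring genes and the list. NCU04401 and NCU04404 were named because member transcripts share exon with them, NCU02248 and NCU01526 because they share exon with list transcripts or genes, and 2 transcripts beyond the distance as its nearest outside. Alternatives were distances of 500, 1000 and 5000 bp, overlaps of 100 bp or 50%, whole spans, at least 200 nt, 2 or more exons, 1 transcript per assembly gene and annotated opposite-strand genes. Counting isoforms of other genes as antisense and leaving out shared isoforms were added after the data were seen. No sequence is shown because no sequence table was used here. Python 3.11.15 and matplotlib 3.10.9 were used.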

Additional observations from a re-analysis of the deposited data

How the results depend on the processing

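Of 39 values recomputed under an alternative, 31 stayed within 1.5 times the main count. With counts this small, the limit also takes in losses of a gene, such as the fall from 3 to 2 below. Requiring at least 200 nt could remove none of the 15 unannotated transcripts, the shortest of which has 258 nt. The number of complex genes with an antisense transcript was 1. It became 0 with 2 or more exons required, since the dim-8 transcript has a single exon, 2 with annotated opposite-strand genes counted (dim-7), 2 with isoforms of other genes counted (dim-5), and 3 with both. For the list of 9 genes the number fell from 2 to 0 with 2 or more exons required. Complex genes with a nearby intergenic transcript numbered 2, but 1 at a distance of 500 bp and 1 with 2 or more exons required. The 15 unannotated transcripts became 9 when counted as 1 per assembly gene and class. Complex genes with an isoform went from 3 to 2 when at least 50% of the transcript had to be shared or shared isoforms were left out, both of which remove dim-5. No paired analysis was possible because the file pools all libraries, and replicates could not be left out in turn for the same reason. Depth is unknown, so an isoform or antisense transcript not assembled here is not shown to be absent.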

Other observations

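The dim-5 transcripts also covered neighbouring genes on the opposite strand. NCU16819, an annotated gene of 1 exon on the plus strand between dim-5 and NCU04403, lay whole inside an exon of both MSTRG.7490.1 and MSTRG.7490.2 on the minus strand (1030 bp). NCU10110, upstream of dim-5, shared 1837 bp, 96.4% of its exon length, with MSTRG.7492.1. The 3′ ends of MSTRG.7490.1 and MSTRG.7490.2 shared 233 bp of exon with NCU04404 beyond NCU04403. An assembled transcript on the other strand thus covered at least 96.4% of the exon length of dim-5, NCU16819 and NCU10110. For dim-5 and NCU10110 it was the same transcript, MSTRG.7492.1, so these cases are not separate. The share of all genes covered to this extent was not computed. The whole gene lay inside 1 such exon of an unannotated transcript for 3.46% of all genes.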
